A study of Mus musculus with 20 samples.

Results

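Livers of *Crem* KO mice taken at the end of the light phase (12 h) were compared with livers of *Crem* KO mice taken at its onset (0 h), to see which diurnal changes of gene expression were present without CREM. The arrays were chosen by their labels alone, as liver arrays with the genotype CREMKO, of which 5 were at 12 h and 5 at 0 h, out of 20 arrays in the series. The other 10 arrays came from WT livers, with 5 mice at each time, and are given only beside the KO values. All mice were 8 weeks old, untreated, of a mixed background (129Pas x C57Bl/J), and held in a 12:12 h light:dark cycle with free food and water. KO stands for *Crem*-/-, a germline loss that the animals carried in every tissue. RNA of the whole liver, which holds hepatocytes together with endothelial, Kupffer, stellate and blood cells, was hybridized to Affymetrix arrays with 1 mouse per array. In such bulk RNA, fewer cells of a type and less RNA per cell cannot be told apart.

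The KO livers at 0 h came from mice 77 and 143 (batch 1), 1 (batch 2), 144 (batch 3) and 76 (batch 4), and those at 12 h from mice 18, 55, 109, 110 and 166 (all batch 5). The values of single mice are given below in this order. Because all 12 h arrays carry batch label 5 and all 0 h arrays the labels 1 to 4, time and batch cannot be told apart in any comparison below, in KO and WT livers alike. With 2 times of the day a difference can be measured, but neither the phase nor the amplitude of a rhythm. All levels are log2 RMA values, in which a step of 1 is a doubling of the brightness, and differences are 12 h minus 0 h on the same scale, so that a positive difference means a higher level at the end of light.

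In mammals the circadian clock of a cell is a loop of transcription factors. The activators CLOCK and BMAL1 (encoded by *Arntl*) bind E-box sequences and switch on the *Per*, *Cry* and *Nr1d* genes and the PAR bZIP factors, and the PER and CRY proteins then inhibit these activators. The REV-ERB receptors (*Nr1d1*, *Nr1d2*) repress *Arntl* through ROR elements, and DBP, TEF and HLF act on D-box sequences, where NFIL3 opposes them. CREM belongs to the CREB family of factors, which bind the cAMP response element (CRE), and its short product ICER is a repressor known for its rhythm in the pineal gland. In the liver the clock, feeding and hormones such as glucocorticoids set the daily course of sugar, lipid and bile acid metabolism.

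The *Crem* probe set was checked first. The log2 level of *Crem* was 8.07, 7.87, 8.17, 7.69 and 7.43 in the 5 KO livers at 0 h and 7.67, 7.48, 7.83, 7.64 and 7.39 in those at 12 h. The 2 times overlapped, and the difference of -0.24 was not past the threshold (exact permutation test over 252 regroupings of the 10 mice, two-sided, p = 0.151, where the smallest possible is 0.0079). Leaving out KO mouse 76, the lowest at 0 h, took it past the threshold (-0.35, exact permutation test, p = 0.040). WT livers lay between 8.11 and 8.54 at 0 h and between 7.90 and 8.02 at 12 h. KO mouse 1, at 8.17, was thus the only KO liver not below the WT livers of its time. Its label was kept, and counts without it are given below. Which probes of the set lie in the disrupted part of the gene was not examined, so that the level of the set does not by itself check the genotype.

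The tissue label was checked by marker genes. The mean log2 level of 11 hepatocyte markers, among them *Alb*, *Apoa1* and *Ttr*, was 13.57 to 13.64 in the KO livers at 0 h and 13.53 to 13.60 at 12 h. Of these 11 genes, 1 was called higher and 2 lower at 12 h, where 10.6% and 9.69% of all probe sets were called higher and lower. All 11 are among the brightest 10% of all probe sets, of which 20.9% were called higher and 22.5% lower. Without overlap between the times were 1 that was higher and 4 that were lower, against 8.87% and 7.49% of all probe sets. Pairwise correlations of the 10 arrays over all probe sets lay between 0.981 and 0.994, with a median of 0.991 within a time and 0.983 between the times. A principal component analysis of the KO arrays put, on the first axis (42.0% of the variance), the 0 h livers at -23.2 to -20.2 and the 12 h livers at 20.7 to 23.2.

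Between 0 h and 12 h, 5211 of 25689 probe sets were called in KO livers (limma, Benjamini-Hochberg adjusted p under 0.05), which is 20.3%. Of these, 2722 (10.6% of all) were higher and 2489 (9.69%) lower at 12 h. The median size of a called difference was 0.38, so that most were below a doubling. A size over 1 was reached by 102 probe sets that were higher and 83 that were lower, and a size over 2 by 16 and 5. In 2278 probe sets (8.87%) all 12 h mice lay above all 0 h mice, and in 1924 (7.49%) all lay below. The split between higher and lower depended on the scaling. The array medians were 7.19 to 7.23 at 0 h and 7.13 to 7.17 at 12 h, and with each array centred on its median 3676 probe sets were higher and 1603 lower. Without KO mouse 1, 4661 probe sets were called (2467 higher and 2194 lower), and 84.4% of the 5211 calls were kept in the same direction.

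The circadian clock genes differed widely between the times. Of 17 clock genes analysed here, 16 were called, 12 of them higher and 4 lower at 12 h, where 20.3% of all probe sets were called. In each of these 16 genes the 2 groups of 5 KO livers did not overlap. Of all probe sets, 8.87% were without overlap and higher at 12 h, and 7.49% without overlap and lower. The 16 calls held under every alternative setting that tested the gene and without each single KO array. The activators were low at the end of light. *Arntl*, which encodes BMAL1, read 9.40, 9.49, 9.27, 9.50 and 9.44 at 0 h and 6.87, 6.74, 6.85, 7.04 and 6.78 at 12 h. Every 12 h liver was thus far below every 0 h liver, with a difference of -2.56 (SE 0.21, limma adjusted p = 1.87e-08), which is 5.92-fold. *Clock*, the partner of BMAL1, went the same way by a smaller step, from 9.55 to 10.02 at 0 h to 8.92 to 9.30 at 12 h over the 5 mice each (-0.77, SE 0.19, limma adjusted p = 0.00432). *Npas2*, another activator, was not analysed here.

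Most repressors of the loop were high at the end of light. *Per1* read 6.99, 7.10, 6.51, 6.90 and 6.55 at 0 h and 8.53, 8.88, 8.52, 8.79 and 8.64 at 12 h, a difference of 1.86 (SE 0.13). *Per2* read 8.21, 7.80, 7.97, 7.57 and 8.03 at 0 h and 9.11, 8.83, 9.04, 9.27 and 9.35 at 12 h (1.21, SE 0.13). *Per3* read 6.84, 6.88, 7.02, 7.11 and 6.95 at 0 h and 9.03, 8.93, 8.89, 8.52 and 8.97 at 12 h (1.91, SE 0.10), where mouse 110 was the lowest of the 12 h livers but still above all 0 h livers. All 3 period genes, whose products hold back CLOCK and BMAL1, were separated between the times in each mouse. The cryptochromes, their partners in repression, went opposite ways, as *Cry2* was higher by 1.05 (SE 0.09) and *Cry1* lower. The log2 level of *Cry1* was 8.74, 8.86, 8.96, 8.80 and 8.79 at 0 h and 8.25, 7.98, 8.45, 8.52 and 8.27 at 12 h (-0.53, SE 0.13, limma adjusted p = 0.00548), the smallest called difference among the clock genes. The lowest 0 h liver was at 8.74 and the highest 12 h liver at 8.52.

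*Ciart*, a repressor also named CHRONO, has 2 probe sets. The brighter one read 6.04, 6.44, 6.80, 6.90 and 6.62 at 0 h and 9.09, 8.98, 9.17, 9.19 and 9.19 at 12 h, a difference of 2.56 (SE 0.20). The other read 6.10, 5.26, 6.61, 6.01 and 6.06 and 9.34, 9.60, 9.54, 9.70 and 9.95, and its difference of 3.62 (SE 0.22) was the largest of all probe sets in KO livers. Both probe sets agreed in direction and differed in size by over 1 log2 unit. The repressors *Bhlhe40* and *Bhlhe41* (DEC1 and DEC2), which compete for the same E-boxes, were higher by 1.09 (SE 0.18) and 1.35 (SE 0.14).

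The genes of both REV-ERB receptors were high at the end of light. *Nr1d2* read 7.66, 7.36, 7.25, 7.56 and 7.49 at 0 h and 10.31, 10.38, 10.26, 10.36 and 10.38 at 12 h. With an SD of 0.16 and 0.05 in the 2 groups, its difference of 2.87 (SE 0.11, limma adjusted p = 3.54e-13) had the smallest adjusted p of the clock genes. *Nr1d1* read 7.88, 8.23, 7.89, 8.24 and 8.20 at 0 h and 9.64, 10.44, 9.28, 9.41 and 9.51 at 12 h (1.57, SE 0.21). Mouse 55 was the highest of the 12 h livers for *Nr1d1*, and the groups did not overlap. *Rora*, an activator at the same elements, was the only clock gene measured that was not called (-0.09, SE 0.13, limma adjusted p = 0.659).

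Among the PAR bZIP factors, *Dbp* read 7.75, 7.82, 8.36, 7.63 and 8.12 at 0 h and 11.26, 11.14, 10.81, 10.53 and 10.90 at 12 h, a difference of 2.99 (SE 0.21, 7.96-fold). *Tef* read 8.41, 8.60, 8.32, 8.43 and 8.41 at 0 h and 10.30, 10.32, 10.16, 10.12 and 10.36 at 12 h (1.81, SE 0.08). The third member, *Hlf*, was higher by 0.62 (SE 0.10). Their opponent *Nfil3* went the other way, from 10.24, 10.51, 10.06, 10.34 and 9.77 at 0 h to 8.53, 8.76, 8.35, 8.62 and 8.40 at 12 h (-1.65, SE 0.14, limma adjusted p = 3.42e-08). All 3 activators of D-boxes were therefore higher, and the repressor at these sites lower, in all KO livers at the end of light.

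**Figure D1:**
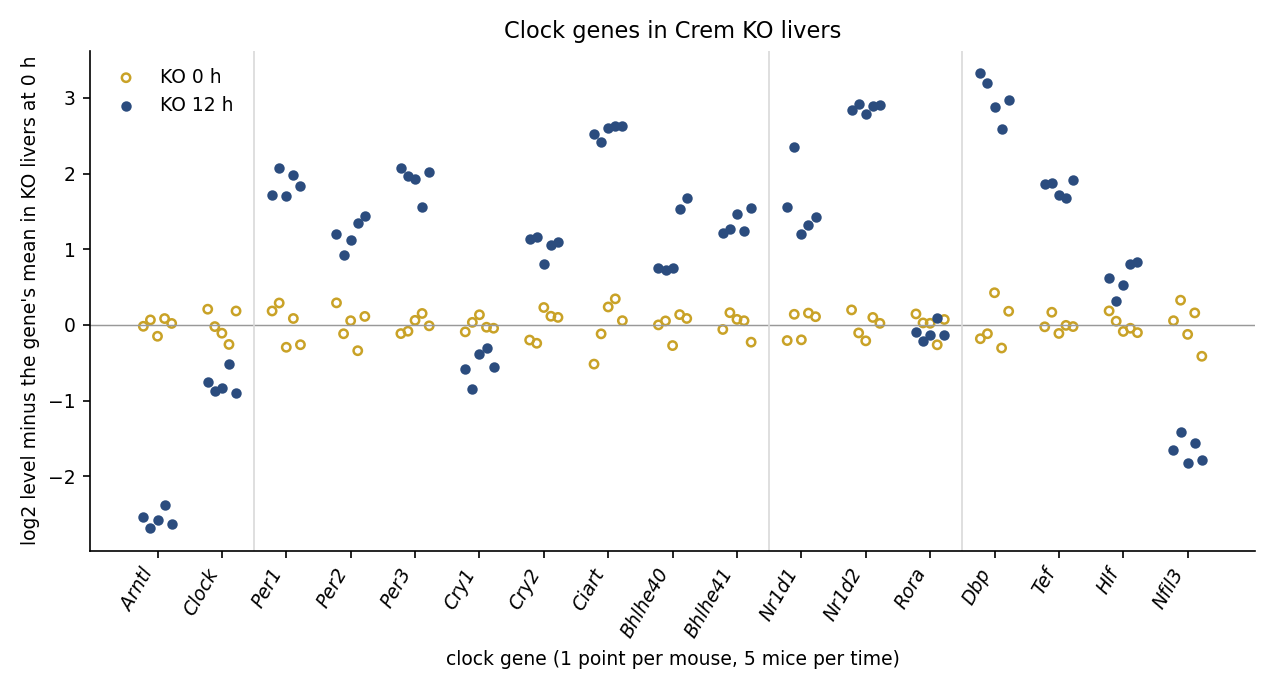
Log2 level of 17 clock genes in single *Crem* KO livers (vertical axis, relative to the mean of the gene at 0 h), with 5 mice at 0 h as open and 5 mice at 12 h as filled circles, grouped by vertical lines into activators, repressors, REV-ERB and ROR receptors, and PAR bZIP factors with *Nfil3*. The 12 h livers lie apart from the 0 h livers in every gene but *Rora*, from -2.56 for the mean of *Arntl* to 2.99 for that of *Dbp*.

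As batch was tied to time, the difference of each clock gene was set against the spread between the 4 batches that hold the KO livers at 0 h. The median size of the difference over the 17 clock genes was 1.57. Their largest difference between batches at 0 h was 0.35 in the median and 0.73 at most, in *Dbp*. In 16 of 17 genes the difference over the light phase exceeded that between batches, which was so in 24.2% of all probe sets and in 77.5% of those called. Against any single batch at 0 h, the difference of *Arntl* was -2.41 or lower and that of *Nr1d2* was 2.77 or higher. Batches 2, 3 and 4 hold a single KO liver each, so that this spread cannot be told apart from that between mice. These values compare the time difference with batches 1 to 4 and hold no measure of batch 5 itself.

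**Figure D2:**
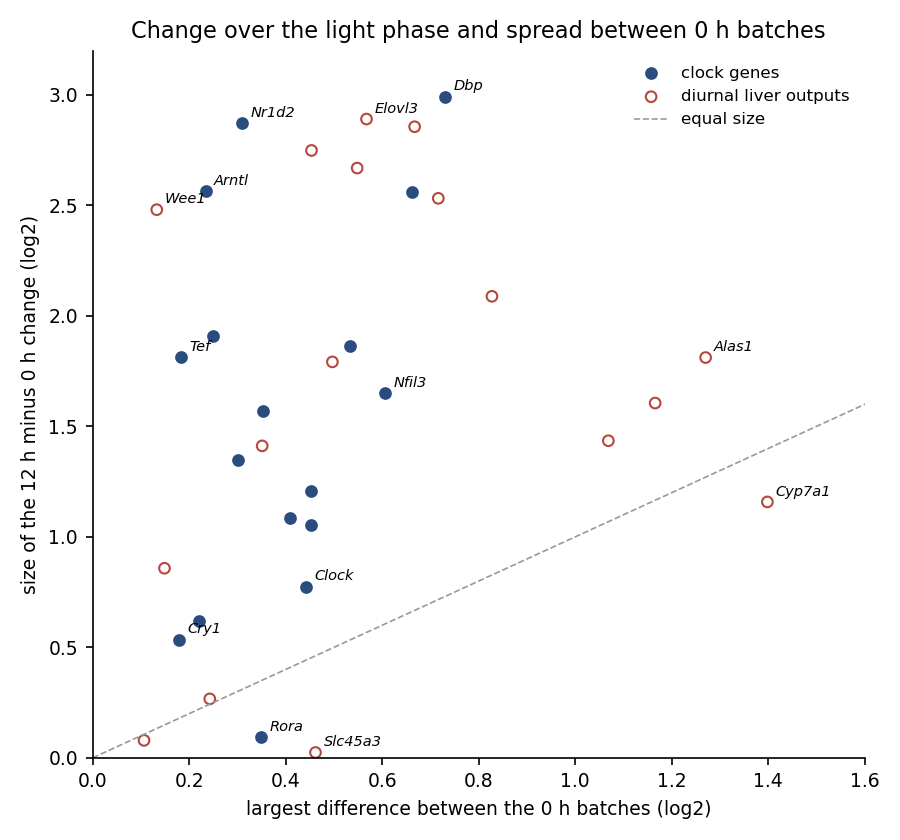
Size of the 12 h minus 0 h difference (vertical axis, log2) against the largest difference between the 4 batches of KO livers at 0 h (horizontal axis, log2), for 17 clock genes (filled) and 17 diurnal output genes (open). Batches 2, 3 and 4 hold a single KO liver each. *Rora*, *Cyp7a1*, *Slc45a3* and *Leprot* lie below the dashed line of equal size, and *Nr1d2*, *Arntl* and *Wee1* lie far above it.

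The sequences by which these factors act were looked up in the promoters of the clock genes. The windows reach from 250 bases before to 50 bases after an annotated start (RefSeq, GRCm38.p6), and each was read on both strands for the E-box CACGTG, the D-boxes TTATGTAA and TTACGTAA, the ROR element TAGGTCA, the CRE TGACGTCA and the heat shock element GAANNTTC. Of the 17 clock genes measured, 15 had a window, and 9 of these held at least 1 of the E-box, D-box, ROR element and CRE. The E-box stood in *Ciart*, *Per1*, *Cry1*, *Bhlhe41* and *Tef*, the D-box in *Per3*, the CRE in *Hlf*, and the ROR element in *Arntl* and *Nfil3*. The promoters shown are those of repressors with an E-box, where *Cry1* went down and the others up, of *Per3* with its D-boxes, of the 2 genes with a ROR element, which both fell, and of *Hlf*, the 1 clock gene with a CRE. Each is given 5′ to 3′ on the strand of the gene, with the motif in capitals.
Ciart: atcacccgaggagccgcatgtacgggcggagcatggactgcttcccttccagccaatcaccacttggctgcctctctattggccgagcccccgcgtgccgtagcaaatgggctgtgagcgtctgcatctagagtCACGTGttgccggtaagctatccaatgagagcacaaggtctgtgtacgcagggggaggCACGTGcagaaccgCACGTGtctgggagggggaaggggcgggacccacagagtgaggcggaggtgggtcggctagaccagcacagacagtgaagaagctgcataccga
Per1: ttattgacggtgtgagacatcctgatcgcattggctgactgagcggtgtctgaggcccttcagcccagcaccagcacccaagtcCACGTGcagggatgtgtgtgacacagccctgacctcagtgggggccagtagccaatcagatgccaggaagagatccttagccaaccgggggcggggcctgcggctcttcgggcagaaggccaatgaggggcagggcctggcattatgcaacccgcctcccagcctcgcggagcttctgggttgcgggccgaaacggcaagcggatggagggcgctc
Cry1: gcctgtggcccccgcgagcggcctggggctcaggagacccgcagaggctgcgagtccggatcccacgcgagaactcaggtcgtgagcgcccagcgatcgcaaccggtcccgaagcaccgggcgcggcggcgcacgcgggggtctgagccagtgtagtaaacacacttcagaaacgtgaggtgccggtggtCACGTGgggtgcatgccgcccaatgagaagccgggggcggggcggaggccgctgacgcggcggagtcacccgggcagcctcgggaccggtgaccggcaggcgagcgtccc
Per3: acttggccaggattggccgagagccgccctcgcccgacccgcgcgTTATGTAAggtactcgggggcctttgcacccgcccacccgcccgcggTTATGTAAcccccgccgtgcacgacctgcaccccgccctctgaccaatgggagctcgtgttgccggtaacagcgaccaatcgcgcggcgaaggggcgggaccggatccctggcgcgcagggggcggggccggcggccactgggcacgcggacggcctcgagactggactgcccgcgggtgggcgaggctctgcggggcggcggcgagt
Arntl: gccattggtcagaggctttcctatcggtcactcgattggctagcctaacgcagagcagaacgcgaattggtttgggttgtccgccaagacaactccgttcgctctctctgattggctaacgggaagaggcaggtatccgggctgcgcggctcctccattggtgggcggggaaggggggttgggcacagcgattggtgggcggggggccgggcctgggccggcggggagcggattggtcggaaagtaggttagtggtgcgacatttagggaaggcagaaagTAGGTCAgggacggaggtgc
Nfil3: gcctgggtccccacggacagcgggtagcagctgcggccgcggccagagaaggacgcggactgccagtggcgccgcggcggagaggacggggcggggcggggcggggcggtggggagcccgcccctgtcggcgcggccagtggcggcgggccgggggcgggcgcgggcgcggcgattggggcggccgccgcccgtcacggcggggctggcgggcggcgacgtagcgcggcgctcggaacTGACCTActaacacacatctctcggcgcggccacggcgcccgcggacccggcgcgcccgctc
Hlf: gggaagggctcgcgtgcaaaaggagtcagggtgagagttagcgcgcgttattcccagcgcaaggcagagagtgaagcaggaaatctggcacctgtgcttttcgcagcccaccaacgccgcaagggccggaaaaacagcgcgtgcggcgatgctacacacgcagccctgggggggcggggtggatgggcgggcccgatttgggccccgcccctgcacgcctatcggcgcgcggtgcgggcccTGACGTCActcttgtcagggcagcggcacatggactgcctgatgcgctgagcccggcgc

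The *Ciart* window (chr3:95882179-95882478, minus strand) held 3 E-boxes, of which the first began 116 bases before the start. The E-box of *Per1* (chr11:69098699-69098998, plus strand) began 166 bases and that of *Cry1* (chr10:85185005-85185304, minus strand) 60 bases before the start, so that the letters were the same in a gene that was higher and in one that was lower. Both D-boxes of *Per3* (chr4:151044616-151044915, minus strand) stand upstream, the first at 205 bases. In *Arntl* (chr7:113207261-113207560, plus strand) the ROR element lay 31 bases into the transcript, and in *Nfil3* (chr13:52980990-52981289, minus strand) it read TGACCTA, the reverse complement, 12 bases before the start. The CRE of *Hlf* (chr11:90390868-90391167, minus strand) began 9 bases before the start. A match is a stretch of letters and not a measured binding site, and in the genes with no match only these letters are absent from these windows.

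Across all 15401 genes with a window, 9.47% held an E-box. The share was 14.8% among 1733 genes called higher, 10.3% among 1648 called lower and 8.59% among 12020 not called. Among the 58 genes that were higher by over 1 it was 24.1% (14 genes), a set that includes clock genes named above. The ROR element was in 2.64% of all genes, 1.38% of those called higher and 3.58% of those called lower, and in 3.45% (2 of 58) of those higher by over 1 and 7.27% (4 of 55) of those lower by over 1. Of these 4 genes, *Arntl* and *Nfil3* are clock genes named above. The D-box was in 1.15% of all genes, 1.15% of those called higher and 0.79% of those called lower. It was in 6.90% (4 of 58) of those higher by over 1, with *Per3* among them, and in 1.82% (1 of 55) of those lower by over 1. The CRE, the element that CREM binds, was in 2.71% of all genes, in 3.75% of those called higher and in 3.16% of those called lower, and in 1.72% (1 of 58) of those higher by over 1 and 7.27% (4 of 55) of those lower by over 1. The heat shock element was in 7.88% of all genes and in 5.48% and 7.71% of those called higher and lower. Calls were more frequent among bright probe sets, and among genes above the median brightness the E-box was in 11.8% of all, 15.3% of those called higher and 10.8% of those called lower, the ROR element in 2.57%, 1.34% and 3.91%, and the CRE in 3.48%, 3.84% and 3.75%. These shares describe the windows and were not tested.

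**Figure D3:**
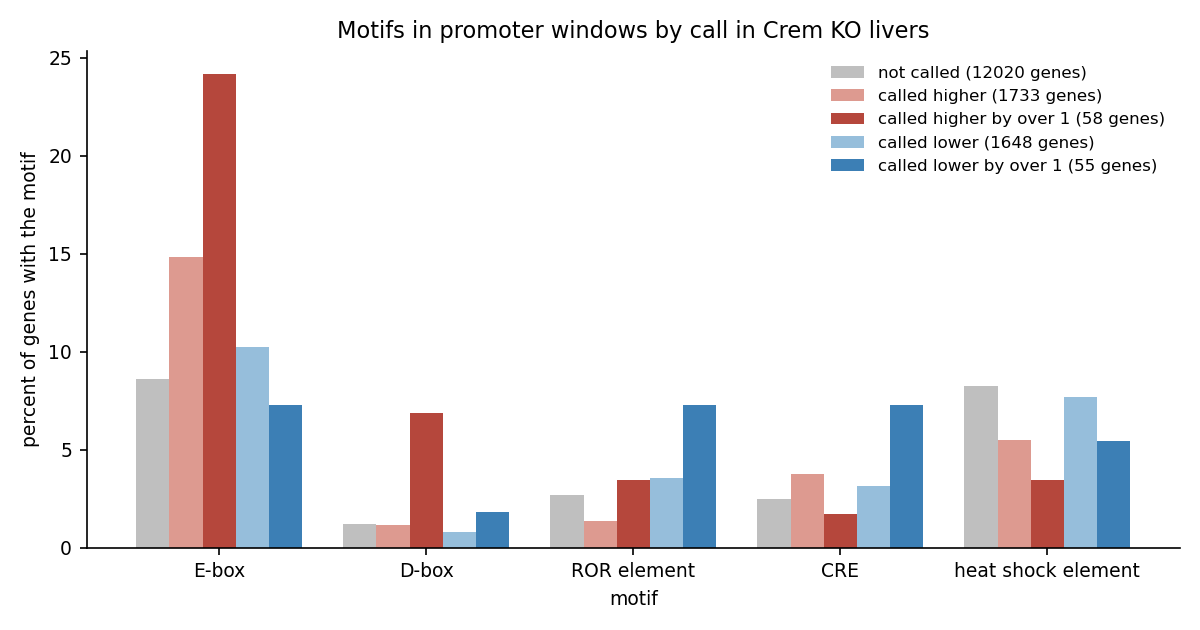
Percent of genes with a motif in a promoter window of 300 bases (vertical axis, from 0) for 5 motifs, by the call of the gene in *Crem* KO livers. The E-box is in 24.1% of the 58 genes higher by over 1 and in 8.59% of those not called, and the ROR element and the CRE are each in 7.27% of the 55 genes lower by over 1.

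Genes known for a daily rhythm in the liver followed with differences of similar size. Of 17 such output genes measured, 11 were called higher and 3 lower, with a median of 1.41 against -0.02 over all probe sets. The 14 called genes were all without overlap between the groups, against 8.87% (higher) and 7.49% (lower) of all probe sets. *Usp2*, which encodes a deubiquitinase, read 7.11, 7.37, 7.79, 7.58 and 7.54 at 0 h and 10.19, 10.03, 10.09, 10.32 and 10.12 at 12 h (2.67, SE 0.16). *Wee1*, the kinase that holds back entry into mitosis, read 8.16, 7.39, 7.77, 7.64 and 7.75 at 0 h and 10.39, 9.95, 10.28, 10.21 and 10.29 at 12 h (2.48, SE 0.11). *Mfsd2a*, a transporter of lysophosphatidylcholine, read 7.94, 7.77, 8.36, 7.69 and 7.83 at 0 h and 10.69, 10.70, 10.77, 10.82 and 10.89 at 12 h (2.86, SE 0.19). In these 3 genes the lowest liver at 12 h stood more than 1 above the highest liver at 0 h. *Lpin1*, a phosphatidate phosphatase (2.53), *Rgs16*, a regulator of G protein signalling (2.09), *Alas1*, the first enzyme of haem synthesis (1.81), and *Nampt*, the rate-limiting enzyme of NAD salvage (1.41), were also higher.

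The largest decrease was that of *Elovl3*. This gene, whose product elongates very long chain fatty acids, read 12.86, 12.64, 12.91 and 12.94 in mice 77, 143, 1 and 76 at 0 h, with mouse 144 the lowest (mean of all 5 mice 12.75, SD 0.24), and 9.61, 10.06, 10.30, 10.45 and 8.86 at 12 h, a difference of -2.89 (SE 0.28, 7.42-fold). *Tubb2a*, a beta tubulin, read 10.24, 10.10, 10.04, 9.72 and 9.72 at 0 h and 7.30, 7.02, 6.50, 7.50 and 7.76 at 12 h (-2.75, SE 0.18). *Loxl4*, of the lysyl oxidase family, read 8.70, 8.34, 8.33, 7.11 and 7.36 at 0 h and 5.38, 5.49, 5.27, 5.42 and 5.27 at 12 h (-2.60, SE 0.22). The 0 h livers of *Loxl4* were spread, with mice 144 and 76 (batches 3 and 4) lower than the others, and the 12 h livers were nearly equal. These 12 h levels are dim, as the dimmest 10% of probe sets reach a mean level of 4.94. Whether a floor of the array limited them was not tested. Among called probe sets with 1 gene symbol, next in size after *Elovl3*, *Tubb2a*, *Loxl4* and *Arntl* came *Chka*, a choline kinase (-1.96), the glycogen-targeting subunit *Ppp1r3c* (-1.94), the water channel *Aqp8* (-1.88) and *Depp1* (-1.87). They were followed by the aromatic amino acid decarboxylase *Ddc* (-1.82), the vasopressin receptor *Avpr1a* (-1.79), the mitochondrial unfoldase subunit *Clpx* (-1.78) and *Ube2u* (-1.78). The groups overlapped in *Depp1* (SE 0.52) and in none of the others. On the side of the increases, the 12 largest among called probe sets with 1 gene symbol also held *Nrg4*, a secreted ligand of the EGF family (2.13), *Gdap10* (2.11) and *Pfkfb3*, a regulator of glycolysis (2.11).

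Of 9 genes of the CREB family and its coactivators, through which cAMP acts, 1 was called higher (*Crtc2*, 0.23) and 1 lower (*Crtc3*, -0.44), the median was 0.03, and no gene was without overlap. The called shares stand near the 10.6% and 9.69% of all probe sets called higher and lower. Without overlap were 8.87% (higher) and 7.49% (lower) of all probe sets. The call of *Crtc2* was lost with batch as a random block (limma adjusted p = 0.0554), with the arrays of KO livers alone, with quantile normalization and without KO mouse 77, 143, 1, 76, 18, 55 or 109. Among 16 cAMP-responsive and immediate early genes 1 was called higher and 2 lower, also near the share of all probe sets, with a median of -0.10 (-0.16 without mouse 55 and -0.055 without mouse 166). *Egr1* read 7.97, 7.31, 8.18, 9.78 and 7.68 at 0 h and 7.31, 7.27, 7.02, 6.85 and 7.24 at 12 h (-1.04, SE 0.28, limma adjusted p = 0.0105), and the level of mouse 144 was far above the other 0 h livers. Without mouse 144 the difference was -0.64 (limma adjusted p = 0.00526). *Fos* (-0.41) lost its call without mouse 144, 109 or 110. *Dusp1*, a phosphatase that acts on MAP kinases, was higher by 0.85, and its call was lost without mouse 143 or 110.

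Of 13 glucocorticoid-responsive genes measured, 5 were called higher at the end of light, 1 was called lower and 7 did not pass, with a median of 0.40, where 10.6% of all probe sets were called higher. The median brightness of this list falls in the 10% of probe sets just below the brightest 10%. Of those probe sets, 27.8% were called higher and 15.8% lower. *Fkbp5*, a co-chaperone of the glucocorticoid receptor, read 8.32, 8.36, 8.12, 8.28 and 8.59 at 0 h and 9.86, 10.46, 10.19, 10.72 and 10.44 at 12 h (2.00, SE 0.23, 4-fold), without overlap. The transcription factor *Zbtb16* (1.54), the lipase inhibitor *Angptl4* (1.13) and *Klf9* (0.48) were higher too. *Pdk4*, the kinase that shuts off pyruvate dehydrogenase, was lower (-1.75, SE 0.17). Of 14 heat shock genes 2 were called lower, the co-chaperones *Stip1* (-0.44) and *Ahsa1* (-0.32), and 0 higher, and the median was -0.01, whereas with each array centred it was 0.05 with 1 gene higher.

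In carbohydrate metabolism, 6 of 9 gluconeogenesis genes measured were called higher and 0 lower, with a median of 0.42, where 10.6% of all probe sets were called higher. All 9 are among the brightest 10% of all probe sets, of which 20.9% were called higher and 22.5% lower. *Pck1*, the enzyme that commits oxaloacetate to glucose, read 10.93, 11.59, 12.05, 11.66 and 11.44 at 0 h and 12.81, 13.26, 13.02, 13.15 and 12.51 at 12 h (1.42, SE 0.18), without overlap. The transaminase *Gpt2* (0.89) and the glucose-6-phosphate transporter *Slc37a4* (0.63) were also higher. For glycolysis and glucose uptake 7 of 15 listed genes were measured, and 4 were called higher, among them the glucose transporter *Slc2a2* (0.63) and pyruvate kinase *Pklr* (0.67). Of 14 genes of glycogen metabolism 2 were called higher and 2 lower, near the 10.6% and 9.69% of all probe sets. Glycogen synthase *Gys2* was higher by 0.86 (SE 0.09). *Ppp1r3c*, which brings protein phosphatase 1 to glycogen, read 10.66, 10.97, 10.55, 11.10 and 11.15 at 0 h and 8.49, 8.33, 8.86, 9.59 and 9.45 at 12 h (-1.94, SE 0.30), without overlap. Of 15 genes of the insulin and IGF axis, 5 were called higher, among them the transcription factor *Foxo1* (0.99) and the kinase *Akt2* (0.54), and 2 lower. This list has its median brightness in the 10% of probe sets just below the brightest 10%. There 27.8% were called higher and 15.8% lower. *Igfbp1*, an IGF-binding protein that insulin represses, read 10.01, 10.09, 11.03, 10.50 and 8.14 at 0 h and 8.54, 9.35, 7.96, 8.40 and 7.53 at 12 h (-1.60, SE 0.48, limma adjusted p = 0.0212). Its groups overlapped, and the call was lost with a robust prior that follows intensity (limma adjusted p = 0.0507) and without mouse 1 (-1.33), 144 (-1.46) or 166 (-1.39).

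Of 17 lipogenesis genes 7 were called higher, 1 was called lower and 9 did not pass (median 0.41, and 0.26 without mouse 166), where 10.6% of all probe sets were called higher. Higher were among others the transcription factor *Srebf1* (0.84), *Dgat2*, which makes triglycerides (0.60), and the desaturase *Fads1* (0.59). The elongase *Elovl5* was lower (-0.49). Of 20 cholesterol genes 0 were called higher, 10 were called lower and 10 did not pass (median -0.33), where 9.69% of all probe sets were called lower. Among the brightest 10% of all probe sets stand 17 of these 20 genes and 15 of the 17 lipogenesis genes. Of that brightest 10%, 20.9% were called higher and 22.5% lower. The cholesterol genes that were lower included *Mvd* (-1.06), *Hmgcs1* (-0.89) and *Pmvk* (-0.88), enzymes of the mevalonate pathway. The largest difference of the list was that of *Insig2*, which holds the SREBP factors in the endoplasmic reticulum, with 12.86, 12.64, 12.85, 12.44 and 12.77 at 0 h and 11.06, 10.86, 10.76, 11.54 and 10.43 at 12 h (-1.78, SE 0.16). *Insig2* is an inhibitor of this pathway and not an enzyme of it. In the bile acid list, 1 of 15 genes was higher and 6 were lower. The 1 that was higher was *Cyp7a1*, the rate-limiting enzyme, with 11.13, 11.78, 10.21, 11.30 and 11.61 at 0 h and 12.81, 12.07, 12.21, 12.55 and 12.19 at 12 h (1.16, SE 0.24, limma adjusted p = 0.00146). Its groups did not overlap, but the difference was smaller than that between the batches at 0 h (1.40), the lowest of which is mouse 1 alone. *Cyp8b1*, which directs synthesis to cholic acid, was lower (-0.68, and -0.44 without mouse 55). *Nr0b2*, which encodes SHP, a repressor of *Cyp7a1*, was lower (-1.03, SE 0.33), a call lost with a robust prior that follows intensity (limma adjusted p = 0.0622) and without mouse 144, 76, 109 or 166.

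Of 21 genes of fatty acid oxidation, 5 were called higher and 1 lower, and 15 did not pass. Beside this list and the next ones stand 10.6% of all probe sets called higher and 9.69% called lower. *Cpt1a*, which admits fatty acids to mitochondria (1.07, SE 0.09), and the nuclear receptor *Ppara* (0.90, SE 0.10) were higher, without overlap. *Cyp4a10*, a target of this receptor, was higher by 1.03 (SE 0.35), a call lost with batch as a random block (limma adjusted p = 0.0554), with a robust prior that follows intensity (0.0853) and without any of mice 77, 143, 1, 76, 18, 109 and 166. For ketogenesis 1 of 3 genes was higher, *Bdh1* (0.41). In NAD metabolism 3 of 15 were higher, namely *Nampt*, *Nadsyn1* (0.48) and the deacetylase *Sirt1* (0.42, lost without mouse 77 or 109), and 1 was lower, *Sirt4* (-0.47). The urea cycle list had 2 higher and 1 lower of 10, with *Otc* at -0.42. Of 23 genes of the P450 system, 5 were higher, led by *Alas1* and the xenobiotic receptors *Nr1i3* (0.64) and *Nr1i2* (0.50), and 3 were lower, among them *Cyp3a13* (-0.45). Phase II conjugation had 2 higher and 6 lower of 24, among them the glutathione transferase *Gstm6* (-0.61). Among the brightest 10% of all probe sets stand 17 of the 21 fatty acid oxidation genes and all 10 urea cycle genes. So do 19 of the 23 P450 genes and 18 of the 24 phase II genes. Of this brightest 10%, 20.9% were called higher and 22.5% lower, near the called shares of several of these lists.

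Genes of the proteasome, of endoplasmic reticulum chaperones and of the respiratory chain were called lower in most of the members measured. Of 28 proteasome subunits 19 were called lower and 0 higher (median -0.40), where 9.69% of all probe sets were called lower. Without overlap were 18 of the 28, against 7.49% of all probe sets without overlap and lower at 12 h. The mean log2 level of the 28 subunits was 10.73 to 10.83 in the 0 h livers and 10.40 to 10.49 in the 12 h livers, with no overlap. *Psmd4*, the subunit that binds ubiquitin chains, read 10.54, 10.40, 10.62, 10.51 and 10.37 at 0 h and 9.56, 9.81, 9.44, 9.55 and 9.50 at 12 h (-0.91, SE 0.07, limma adjusted p = 1.77e-08). Of 20 genes of endoplasmic reticulum chaperones and the unfolded protein response 14 were lower and 1 higher (median -0.45). Lower were *Sdf2l1* (-0.83), the ubiquitin ligase *Syvn1* (-0.71), *Creld2* (-0.68) and the disulfide isomerase *Pdia6* (-0.63), and *Herpud1*, of the degradation pathway of this organelle, was higher (0.49). Their mean level was 11.05 to 11.40 at 0 h and 10.77 to 10.92 at 12 h.

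Of 42 respiratory chain genes 26 were lower and 0 higher (median -0.25), and 27 were without overlap. Of all probe sets 10.6% were called higher and 9.69% lower, and 7.49% were without overlap and lower at 12 h. The mean level of the 42 genes was 11.31 to 11.38 at 0 h and 11.04 to 11.10 at 12 h. *Ndufb10* (-0.89) and *Ndufb8* (-0.73) of complex I, *Cox6a1* (-0.72) of cytochrome oxidase and *Atp5e* (-0.79) of ATP synthase were the largest. With each array centred 22 were lower and 2 higher. Among cytosolic ribosomal proteins 21 of 76 listed genes had a probe set of their own, and 12 were lower and 0 higher (median -0.40), led by *Rps3a1* (-1.39) and *Rpl26* (-1.24). The groups overlapped in *Rps3a1* (SE 0.34) and not in *Rpl26* (SE 0.09). Ribosomal protein genes have many near-identical copies in the genome, and how the probes divide between them was not examined. Of 27 genes that build ribosomes 10 were called higher, 1 was called lower and 16 did not pass (median 0.12, and 0.074 without mouse 110). *Polr1a*, the large subunit of RNA polymerase I (0.48), and *Nop2* (0.47) were among the higher ones. Their list has its median brightness in the 10% of probe sets just below the brightest 10%, with 27.8% called higher and 15.8% lower. Most of the proteasome, endoplasmic reticulum and respiratory chain genes are bright. They stand with 26 of 28, 16 of 20 and 39 of 42 among the brightest 10% of all probe sets. Of these 22.5% were called lower and 20.9% higher, against 0.86% and 4.01% of the dimmest 10%.

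In autophagy 7 of 21 genes were higher, led by *Bnip3* (0.81) and the initiating kinase *Ulk1* (0.67), and 3 were lower, led by the protease *Atg4b* (-0.54). Beside this list and the next ones stand 10.6% of all probe sets called higher and 9.69% called lower. The autophagy list has its median brightness in the 10% of probe sets just below the brightest 10%. There 27.8% were called higher and 15.8% lower. Besides *Tubb2a*, the tubulins *Tuba4a* (-0.78), *Tubb5* (-0.71) and *Tubb6* (-0.44) were lower, 4 of 10 in all, with 0 higher, though 1 was higher with each array centred. Of 22 cell cycle genes 5 were higher and 0 lower, among them *Wee1* and the cyclins *Ccne1* (0.64) and *Ccne2* (0.44). *Ccnd1* was higher by 0.78 (SE 0.27), a call lost with batch as a random block (limma adjusted p = 0.0596), with quantile normalization (0.0684), with a robust prior that follows intensity (0.0853) and without mouse 143, 1, 144, 76, 55, 109 or 110.

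**Figure D4:**
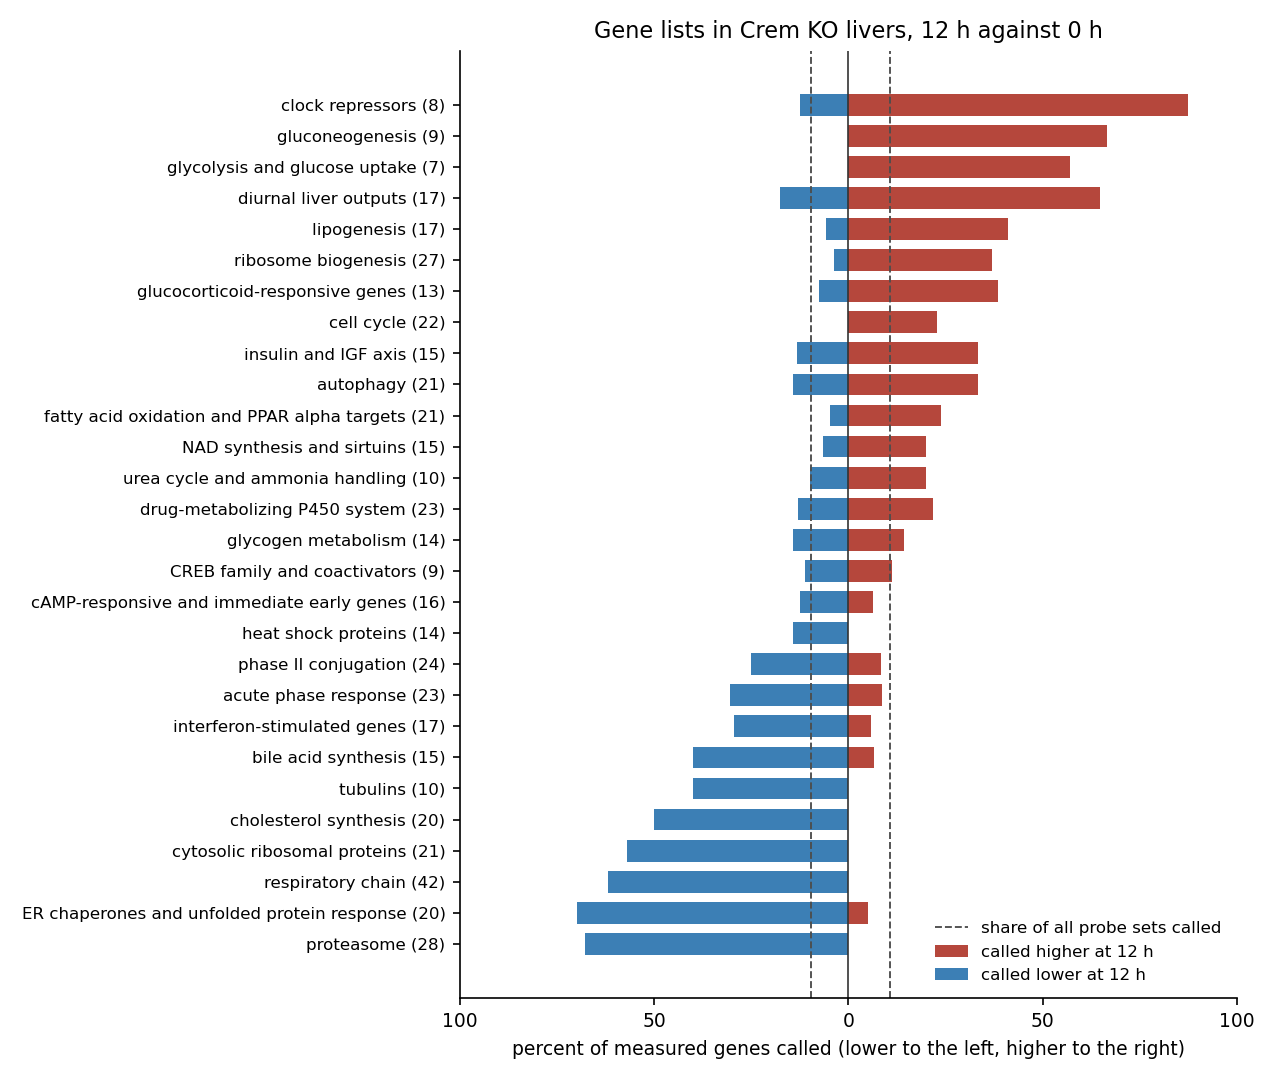
Percent of the measured genes of each list that were called lower (left) and higher (right) at 12 h than at 0 h in *Crem* KO livers, with the number of genes measured in brackets, for lists with at least 7 measured genes. Dashed lines mark the 9.69% and 10.6% of all probe sets called lower and higher. The longest bar to the right is that of the clock repressors (87.5%). To the left, the longest is that of endoplasmic reticulum chaperones and the unfolded protein response, followed by the proteasome (67.9%).

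Of 23 acute phase genes measured, which the liver makes in inflammation, 2 were higher and 7 lower (median -0.21, and -0.084 without mouse 1). Beside this list and the next one stand 10.6% of all probe sets called higher and 9.69% called lower. Of the 23 genes, 16 are among the brightest 10% of all probe sets, where 20.9% were called higher and 22.5% lower. *Saa1*, the serum amyloid gene, read 11.46, 10.08, 12.75, 8.84 and 10.76 at 0 h and 8.47, 8.83, 8.31, 10.95 and 8.60 at 12 h (-1.74, SE 0.57, limma adjusted p = 0.0327). The groups overlapped, mouse 110 stood above the other 12 h livers, and the call was lost with the arrays of KO livers alone (limma adjusted p = 0.0647), with a robust prior that follows intensity (0.0715) and without mouse 77, 1, 76, 18, 55, 109 or 166. The fibrinogen genes *Fga* (-0.97, SE 0.10) and *Fgg* (-0.49, SE 0.06) were lower without overlap, and the interleukin receptor *Il6ra* was higher (1.47, SE 0.12). Of 17 interferon-stimulated genes 5 were lower, led by *Mx2* (-0.74) and *Rtp4* (-0.66), and 1 was higher.

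Markers of the other cell types of the liver were read against the 20.3% of all probe sets called. For Kupffer cells, the resident macrophages, 2 of 10 markers were called lower, *Vsig4* (-0.55) and *Clec4f* (-0.39), and 0 higher, with a median of -0.23 (-0.13 without mouse 1). With quantile normalization 5 of the 10 were called lower (median -0.27), and with each array centred 1 (median -0.17). Their mean log2 level was 9.27 to 9.75 at 0 h and 9.12 to 9.47 at 12 h, so that the groups overlapped. For sinusoidal endothelium 2 of 9 were higher and 1 lower (mean level 9.46 to 9.68 at 0 h and 9.41 to 9.70 at 12 h), for stellate cells 1 of 9 was lower (9.11 to 9.19 and 9.04 to 9.17), and for cholangiocytes 1 of 5, *Sox9*, was lower (7.00 to 7.14 and 6.79 to 6.99, without overlap). Of 8 neutrophil, 6 T cell, 4 B cell and 3 erythroid markers 0 were called, with mean levels of 5.82 to 6.05, 6.50 to 6.69, 6.04 to 6.37 and 8.12 to 8.31 at 0 h against 5.82 to 5.96, 6.51 to 6.59, 5.96 to 6.13 and 7.96 to 8.08 at 12 h, without overlap for the erythroid genes. Of 6 pancreatic acinar markers 1 was lower, *Cela1* (7.01 to 7.18 and 6.79 to 7.02). A log2 array value has no zero, so that these levels do not tell whether a cell type was absent, and the part of these cells in the results above was not tested.

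The same times were then compared in WT livers, where batch and time are tied in the same way. In WT livers 7144 probe sets were called, which is 27.8%. Called in both genotypes in the same direction were 3701 probe sets, 71.0% of the KO calls and 51.8% of the WT calls, and 5 were called in opposite directions. Of 1505 probe sets called only in KO livers, 1374 had the same sign in WT livers. Across all 25689 probe sets, which are not independent, the differences of KO and WT livers had a Pearson correlation of 0.795 and a Spearman correlation of 0.718, over mice that do not overlap but share the batch labels. Of the 185 probe sets called in KO livers with a size over 1, 180 had the same sign in WT livers and 164 were called there.

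Whether a difference was larger or smaller in KO than in WT livers was tested as a term of its own. This test called 0 of 25689 probe sets (limma, smallest adjusted p = 0.475), and 1757 (6.84%) had an unadjusted p under 0.05. The precision was limited. For the 185 large KO differences the 95% confidence interval of KO minus WT lay within 1 log2 unit on either side of 0 in 133 (71.9%). Among the 17 clock genes the size of KO minus WT had a median of 0.19, and the intervals reached from 0.23 to 0.63 to each side of it. For *Dbp* the difference was 2.99 in KO and 2.80 in WT livers (KO minus WT 0.20, interval -0.41 to 0.80), for *Nr1d2* 2.87 and 2.59 (-0.05 to 0.62), and for *Arntl* -2.56 and -2.14 (-1.04 to 0.19). *Tef* had the narrowest interval, -0.11 to 0.35, around 0.12. *Rora* had an interval that left out 0 (-0.78 to -0.03) before adjustment. The intervals of the other 16 clock genes included 0, which does not show that their differences were equal.

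Some genes stood off this common pattern before adjustment. *Igfbp1* differed by -1.60 in KO livers and by 0.51 in WT livers, with KO minus WT at -2.11 (interval -3.52 to -0.70, limma adjusted p = 0.604). The smallest p for the difference was that of *Slc43a1*, an amino acid transporter, which read 8.02, 7.87, 8.03, 8.06 and 8.49 at 0 h and 8.49, 8.17, 8.46, 8.47 and 8.18 at 12 h in KO livers (0.26), against 1.14 in WT livers (KO minus WT -0.88, interval -1.23 to -0.53, limma adjusted p = 0.475). *Ccng2*, an atypical cyclin, read 8.66, 8.81, 9.40, 8.81 and 8.59 and 7.78, 7.73, 7.15, 7.56 and 7.48 (-1.32), against -0.35 in WT livers (KO minus WT -0.97, interval -1.38 to -0.55, limma adjusted p = 0.475). Mouse 1 was the highest 0 h liver for *Ccng2*. The next 4 in order were *Cib1* (KO -0.11, WT -0.78), *Hyal5* (KO -0.26, WT 0.33), *Olfr1372-ps1* (KO 0.89, WT 0.10) and *Efcab2* (KO -0.22, WT 0.45). *Ppp1r3c* (KO -1.94, WT -1.01, interval -1.80 to -0.06) and *Insig2* (KO -1.78, WT -1.23, interval -1.03 to -0.07) had intervals that left out 0 with the larger decrease in KO livers, and *Rgs16* (KO 2.09, WT 2.97, interval -1.62 to -0.14) one with the smaller increase. None of these passed the adjustment over all probe sets.

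**Figure D5:**
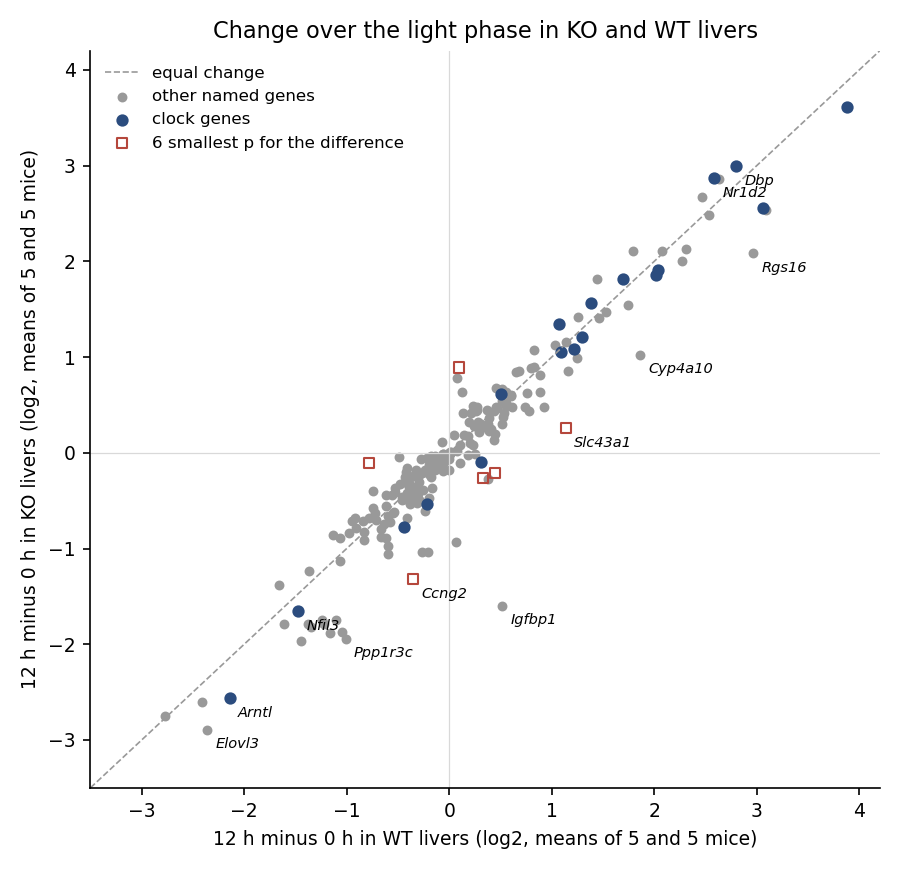
Log2 difference 12 h minus 0 h in *Crem* KO livers (vertical axis) against that in WT livers (horizontal axis), each from 5 and 5 mice, for the named genes, with clock genes in blue and the 6 genes with the smallest p for the difference as squares. The clock genes lie near the dashed line of equal difference but not on it, with *Rora* at -0.09 in KO and 0.31 in WT livers. *Igfbp1* lies far off this line at -1.60 in KO and 0.51 in WT livers.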

How the data were processed

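The authors deposited 1 log2 expression value per probe set and array, made by RMA, which corrects the background, normalizes between arrays and summarizes probes. The RMA version and settings and the genome build are not given in the sources used here, and the study's published methods describe testis arrays. How far single probes stood above background was not given. Of 35557 probe sets, 9868 held no value on any array and 25689 were tested, of which 20777 have 1 gene symbol, 232 several and 4680 none. The symbols came from the platform annotation, checked against the RefSeq gene table, and stand for 19661 genes. In lists, a gene with several probe sets (564 genes) was represented by its brightest one, by the mean of the 20 arrays.

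A linear model with 4 group means over all 20 arrays was fitted in R 4.3.3 by the lmFit and eBayes functions of limma 3.58.1, and tables were made with Python 3.11.15 and pandas 2.3.3. Probe sets were called at a Benjamini-Hochberg adjusted p under 0.05 over all 25689. For *Crem* an exact permutation test was used. Nothing in the labels says more of the replicates than that each array is 1 mouse. No 2 groups share mice. The precision of each mean is limited by 5 mice.

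The fitting code was tested on simulated data with known differences. Named genes were *Crem*, all measured clock genes, the 12 highest and 12 lowest differences among called probe sets with 1 symbol, up to 4 called genes per other list and direction, cell type markers, and the 6 smallest p for KO against WT. *Apcs*, *Irs2* and other genes admitted by this rule but not mentioned are left out for brevity. *Slc45a3*, *Leprot* and the order of *Rgs16*, *Ppp1r3c* and *Insig2* among genes that differ from WT were singled out after their values were seen. The genes, lists and tests were chosen with earlier results of these data known. List members that no probe set names alone were not measured.

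Promoter windows of RefSeq (GRCm38.p6, 18919 windows) were matched by symbol to 15401 genes, and 4260 genes on the array had none. Alternatives were the batch label as a random block, only the arrays compared, bright probe sets only, quantile normalization, centring, array weights, a robust prior with an intensity trend, probe sets with 1 symbol only, the mean of all probe sets of a gene, and leaving out each KO array. The run without WT mice 80 and 170 and the motif shares of bright genes were chosen after the data were seen.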

Additional observations from a re-analysis of the deposited data

Results flagged for a closer look

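In 9 of 154 groups of 5 values tested, 1 KO mouse stood apart from the other 4 of its time, where chance gives about 1 in 20, or 7.7. At 12 h, mouse 110 had a mean log2 level of the acute phase genes of 11.53 against 10.88 to 11.06 in the others, a *Saa1* level of 10.95 against 8.31 to 8.83, and a *Per3* level of 8.52 against 8.89 to 9.03. In mouse 55 at 12 h the mean of the cAMP-responsive and immediate early genes was 7.79 against 7.58 to 7.62, and that of the cytosolic ribosomal proteins 9.85 against 9.92 to 9.93. At 0 h, mouse 77 had a mean of the gluconeogenesis genes of 11.79 against 12.01 to 12.09. The mean of the P450 genes in mouse 144 was 11.32 against 11.12 to 11.17. In mouse 76 the autophagy genes had a mean of 9.41 against 9.48 to 9.50. The *Ccng2* level of mouse 1 was 9.40 against 8.59 to 8.81.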

How the results depend on the processing

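The count of 5211 probe sets called for time in KO livers ranged from 4622 (only probe sets with 1 gene symbol) to 5816 (array weights) under the other settings, with 4720 with batch as a random block (2525 higher and 2195 lower, correlation within batches 0.029) and 4955 with quantile normalization. Leaving out 1 KO array gave 4463 to 4661 calls, and 81.4% to 99.6% of the 5211 calls were kept in the same direction over all these runs. The lowest share came with only bright probe sets, where fewer were tested. Centring moved the split from 2722 higher and 2489 lower to 3676 and 1603, and took out a difference of -0.06 (12 h minus 0 h) between the array medians of KO livers. For time in WT livers, leaving out 1 KO array gave 6994 to 7136 calls and leaving out WT mice 80 and 170, which stood apart in earlier results of these data, gave 4769. The difference between the genotypes gave 0 calls in each run, leaving out 1 array (0 to 0) included. The difference of *Crem* ranged from -0.35 to -0.16 leaving out 1 array, and passed without KO mouse 76 alone (exact permutation test, p = 0.040).

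For 157 named genes 2818 values were computed under other settings. Of these, 2676 kept direction and call, 140 lost the call, 2 gained it (*Crem* and *Slc43a1*, both without KO mouse 76) and 0 reversed. The calls lost most often were those of *Atg5*, *Ehhadh*, *Hyal5* and *Pygl* (11 runs each), *Irs2*, *Crtc2* and *Ccnd1* (10 each) and *Cyp4a10* and *Saa1* (9 each), and the cause was not tested. Of 559 medians of the 43 gene lists 540 moved by less than the spread between mice. The medians of urea cycle genes, NAD genes, heat shock proteins and markers of hepatocytes, T cells, stellate cells and sinusoidal endothelium, all under 0.1 in size, turned sign with centring or quantile normalization. No paired analysis was possible because no mouse number occurs at both times.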
